A study of Danio rerio with 6 samples.

Results

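The T-box genes tbxta, tbx16, tbx16l, tbx6, tbx1 and tbr1b were followed in zebrafish gastrulae carrying EWS-FLI1, the human fusion oncoprotein of Ewing sarcoma. They were taken by name, as every probe set to which the platform annotation gives exactly 1 gene symbol and that symbol is one of these. This gave 7 probe sets for the 6 genes, out of 15502 tested probe sets and 8793 measured genes. The gene tbx16 has 2 probe sets and the other 5 genes have 1 each, and 0 probe sets with several symbols name any of them. The Tg(HSP:EWS-FLI1) embryos carry the human fusion under a heat shock promoter, and the AB control embryos are the wild-type strain without it. Both lines were heat shocked for 30 min at 39 °C when the blastoderm had covered 50% of the yolk, then kept for 2 h at 28.5 °C before whole embryos were collected. Each group had 3 Affymetrix arrays, and each array came from a pool of 40 embryos. The sources used here do not say how many insertions or copies of the transgene the line has, and expression of the fusion itself was not analysed here. The series has only these 2 groups. Effects of the fusion therefore cannot be told apart from those of strain background, insertion, clutch or pace of development.

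T-box factors are transcription factors that share a DNA-binding domain, the T-box. In fish gastrulae tbxta, the counterpart of mouse Brachyury, is expressed at the blastoderm margin and in the forming notochord, and tbx16 and tbx16l in the mesoderm progenitors beside it, downstream of Nodal, FGF and Wnt signals. tbx6 acts later in the segmentation of the presomitic mesoderm, tbx1 in the pharyngeal arches, heart and ear, and tbr1b in young neurons of the dorsal forebrain.

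The 6 genes moved apart. tbr1b, tbx1 and tbxta rose in EWS-FLI1 embryos, tbx16l and tbx6 fell, and tbx16 fell at its dimmer probe set but was not called at its brighter one. A probe set was called when limma's p-value, Benjamini-Hochberg adjusted over all tested probe sets, was under 0.05. Of the 7 probe sets 6 were called, against 11.8% of all tested probe sets, where 5.38% were called higher and 6.46% lower. The 2 groups of arrays did not overlap at any of the 7, against 29.0% of all probe sets. The genes were chosen with earlier results of these data known, so these counts describe them and are no independent evidence.

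Values are log2 RMA values, in which 1 unit is a doubling of the summarised probe signal, and differences are EWS-FLI1 minus AB control. Array medians lay between 5.09 and 5.13. As a mark of background, the 95th percentile of the mean values of 44 bacterial and tag control probe sets was 4.19. Correlations over all probe sets were 0.998 within EWS-FLI1 arrays, 0.991 to 0.994 within AB control arrays and 0.982 to 0.988 between the groups. The median SD of a probe set was 0.0917 in EWS-FLI1 and 0.135 in AB control arrays (n = 3 each). RNA integrity was read from GAPDH control probe sets, whose 3' minus 5' signal was 1.21 ± 0.10 in EWS-FLI1 and 0.83 ± 0.12 in AB control pools (SD, n = 3 each; exact permutation p = 0.1). In the acta1 control this signal was -0.42 ± 0.07 in EWS-FLI1 and -0.11 ± 0.27 in AB control pools (SD, n = 3 each; exact permutation p = 0.1). For both GAPDH and acta1 the 2 groups of pools did not overlap, and 0.1 is the smallest p that this test can give here. The shifts went in opposite directions, at 0.38 for GAPDH and -0.32 for acta1. The part of RNA integrity in the T-box results was not tested. The labels name no scan or hybridization batch, and the clutches behind the pools are not given, so p-values measure the spread between pools.

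**Figure D1:**
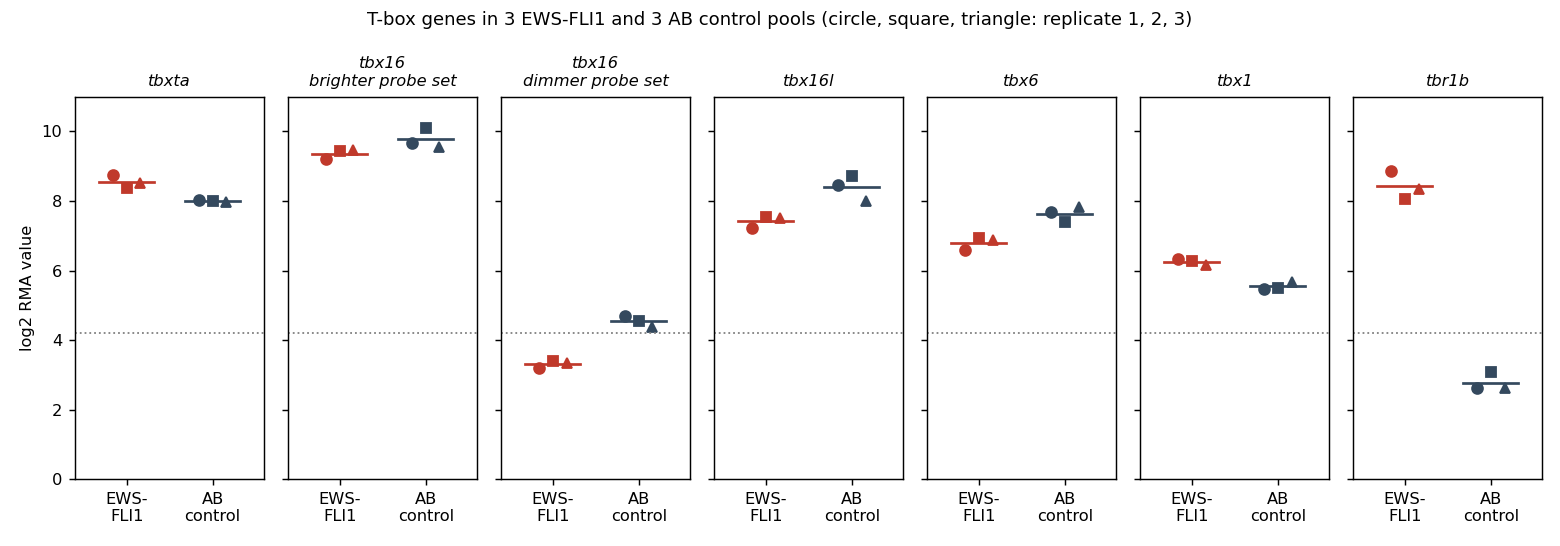
log2 RMA values of the 7 T-box probe sets on each array, with EWS-FLI1 pools in red on the left of each panel and AB control pools in dark grey on the right. Bars are group means (n = 3) and the dotted line is the background mark of 4.19. The red and dark grey points do not overlap in any panel, and tbr1b lies far above the line in EWS-FLI1 pools and below it in AB controls.

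tbr1b, a forebrain factor that specifies glutamatergic projection neurons of the cortex in mice, was high in every EWS-FLI1 pool and at background in every control. It had 8.87, 8.07 and 8.36 in EWS-FLI1 replicates 1 to 3, against 2.62, 3.09 and 2.62 in AB control replicates 1 to 3. The lowest EWS-FLI1 pool stood 4.98 above the highest control. The difference was 5.66 (SE 0.21, limma adjusted p = 1.3e-06), or 50.4-fold, and 3 of the tested probe sets had a larger one. All AB control values lay below the background mark, so the fold is set by background on the control side and is not a measure of how much tbr1b the control embryos had. The pools are whole embryos, in which more cells with a transcript and more transcript per cell cannot be told apart.

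tbx1, a regulator of the pharyngeal arches and the ear, rose by far less. It had 6.32, 6.27 and 6.16 in EWS-FLI1 pools, against 5.48, 5.51 and 5.67 in AB control pools. Spread was small in both groups, at 0.08 and 0.10 (SD, n = 3 each), and the lowest EWS-FLI1 pool lay 0.49 above the highest control. The difference was 0.70 (SE 0.09, adjusted p = 0.0021), or 1.62-fold.

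tbxta, which is needed for the notochord and the tail in zebrafish, also rose. Its values were 8.74, 8.38 and 8.51 in EWS-FLI1 pools, against 8.04, 7.99 and 7.98 in AB control pools. The controls lay within 0.06 of each other, whereas the EWS-FLI1 pools spanned 0.36. The difference was 0.54 (SE 0.11, adjusted p = 0.0123), or 1.45-fold. It was the smallest called difference among these genes. The call held without any 1 array, with adjusted p up to 0.0497 without EWS-FLI1 replicate 3.

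tbx16l, which acts with tbx16 in forming posterior mesoderm, fell. It had 7.23, 7.54 and 7.50 in EWS-FLI1 pools, against 8.46, 8.71 and 8.01 in AB control pools. The controls were the more scattered group, with an SD of 0.17 in EWS-FLI1 and 0.35 in AB control pools (n = 3 each), and the lowest control still lay 0.47 above the highest EWS-FLI1 pool. The difference was -0.97 (SE 0.17, adjusted p = 0.0079), which is a 1.96-fold lower signal.

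tbx6, whose loss leaves zebrafish with fused somites, fell by a like amount. Its values were 6.58, 6.94 and 6.87 in EWS-FLI1 pools, against 7.68, 7.41 and 7.83 in AB control pools. The difference was -0.84 (SE 0.14, adjusted p = 0.0051), or 1.79-fold lower, with a gap of 0.47 between the groups. The per-array tbx16l minus tbx6 value overlapped between the groups. It was 0.63 ± 0.03 in EWS-FLI1 and 0.75 ± 0.56 in AB control pools (SD, n = 3 each, difference -0.13, exact permutation p = 0.7).

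tbx16, the spadetail gene that trunk mesoderm cells need to migrate and form somites, gave unequal readings at its probe sets. The brighter one had 9.20, 9.43 and 9.46 in EWS-FLI1 pools, against 9.68, 10.10 and 9.54 in AB control pools. All EWS-FLI1 values were below all control values, but by only 0.08, and control replicate 2 stood well above the other controls. The difference of -0.41 (SE 0.15, adjusted p = 0.124) was not called, and it was -0.25 (adjusted p = 0.208) without control replicate 2 and -0.53 (adjusted p = 0.0489, called) without control replicate 3.

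The dimmer probe set of tbx16 had 3.20, 3.40 and 3.35 in EWS-FLI1 pools, against 4.69, 4.56 and 4.37 in AB control pools. The control pools were just above the background mark and the EWS-FLI1 pools below it. The difference was -1.22 (SE 0.11, adjusted p = 2.6e-04), or 2.33-fold lower, and its size depends on the background. The brighter minus the dimmer value was 6.05 ± 0.06 in EWS-FLI1 and 5.23 ± 0.28 in AB control pools (SD, n = 3 each). This is a shift of 0.81 with no overlap (exact permutation p = 0.1, adjusted over the 21 pairs of probe sets 0.131), and its size also depends on the background. With 3 pools against 3, 0.1 is the smallest p that this test can give, so it cannot call the changes unequal. The platform lists the brighter set under one deposited tbx16 sequence and the dimmer under another, and the position of the probes along the transcript was not analysed here.

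**Figure D2:**
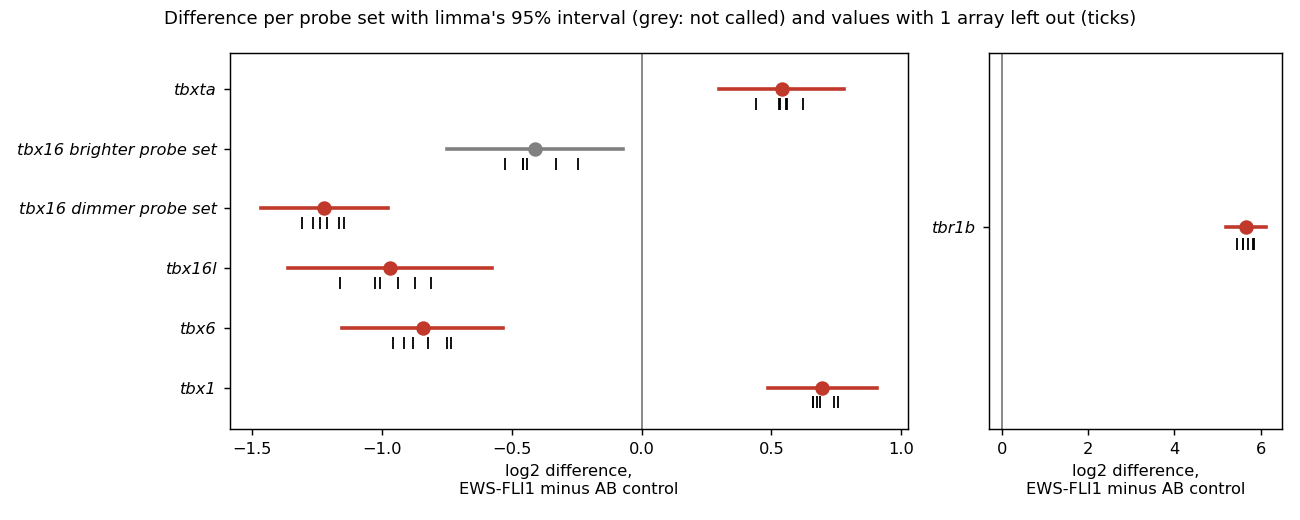
log2 difference of each T-box probe set, EWS-FLI1 minus AB control, with limma's 95% interval, which is not adjusted for the number of probe sets (left panel, tbxta to tbx1; right panel, tbr1b on its own scale). Ticks are the 6 values with 1 array left out. Because the 2 groups do not overlap at any of the 7 probe sets, the ticks must lie on the same side of 0 as the full value. The widest relative spread is that of the brighter tbx16 set in grey, between -0.53 and -0.25.

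Within an array, pairs of these genes were compared by the difference of their log2 values, for 21 pairs of probe sets. This describes how the 2 members of a pair shifted against each other and says nothing of which of the genes is more abundant. With 3 pools against 3 the smallest p is 0.1, so this test can call no pair unequal. For genes called in opposite directions, the shift follows from the values given above and adds no evidence. tbxta minus tbx16l was 1.12 ± 0.35 in EWS-FLI1 and -0.39 ± 0.35 in AB control pools (SD, n = 3 each), a shift of 1.51 with no overlap (exact permutation p = 0.1, adjusted over the pairs 0.131). tbxta shifted likewise against tbx6 by 1.38 and against the brighter tbx16 set by 0.95 (exact permutation p = 0.1 for each, adjusted 0.131). Relative to each of these genes, tbxta was higher in every EWS-FLI1 pool than in every AB control pool. For tbxta and tbx1, which both rose, the groups overlapped. Here tbxta minus tbx1 was 2.29 ± 0.16 in EWS-FLI1 and 2.45 ± 0.13 in AB control pools (SD, n = 3 each, exact permutation p = 0.3).

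tbx16 and tbx16l were compared in the same way. The brighter tbx16 set minus tbx16l was 1.94 ± 0.04 in EWS-FLI1 and 1.38 ± 0.16 in AB control pools (SD, n = 3 each), a shift of 0.56 (exact permutation p = 0.1, adjusted 0.131). The dimmer tbx16 set minus tbx16l shifted by -0.25 (exact permutation p = 0.4), with overlapping groups. Among the controls, tbx16l and the brighter tbx16 set shared their order, with control replicate 2 highest and control replicate 3 lowest, whereas for tbx6 replicate 3 was highest and replicate 2 lowest.

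EWS-FLI1 replicate 1 lay farthest from the control mean at 7 of 7 probe sets, being the highest of its group where the gene rose and the lowest where it fell. Over all 1835 called probe sets the same array was the farthest at 54.3%, replicate 2 at 18.7% and replicate 3 at 23.4%, and over all tested probe sets replicate 1 was the farthest at 35.9%. For tbr1b the distances were 6.09, 5.29 and 5.58 in EWS-FLI1 replicates 1 to 3. For tbx16l they were -1.16, -0.85 and -0.89, and for tbxta 0.74, 0.38 and 0.51. Without replicate 1 the differences were 0.44 for tbxta (adjusted p = 0.0493) and -0.87 for tbx16l (adjusted p = 0.0463), both still called.

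**Figure D3:**
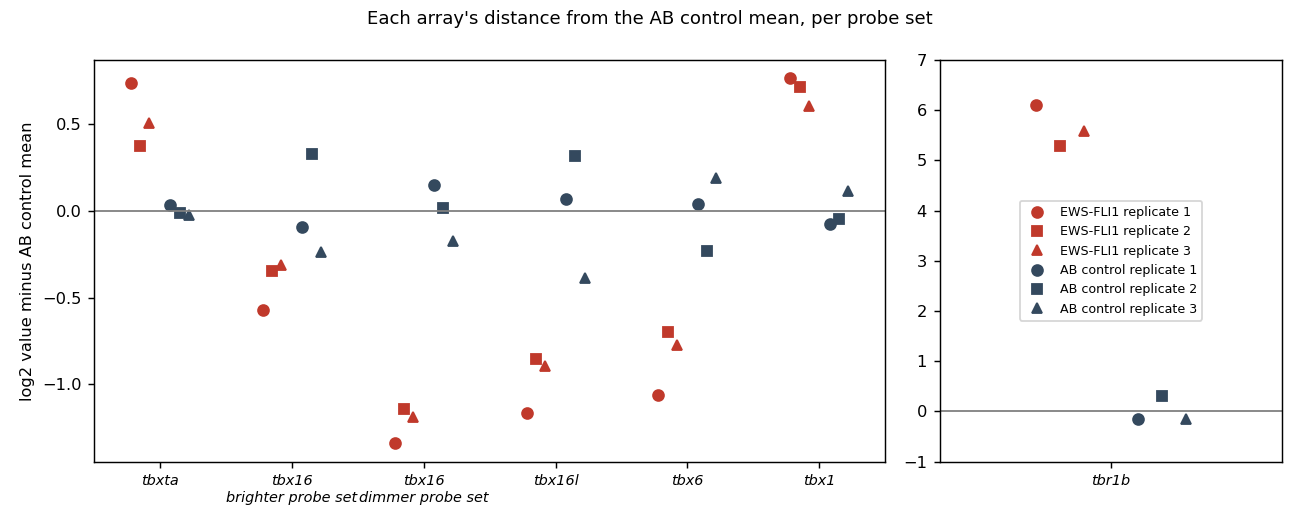
Distance of each array from the AB control mean in log2 units, per T-box probe set, with EWS-FLI1 pools in red and AB control pools in dark grey (circle, square and triangle for replicates 1 to 3; tbr1b on its own scale). The red circle, EWS-FLI1 replicate 1, is the outermost point of its group at all 7 probe sets, for example 6.09 at tbr1b and -1.34 at the dimmer tbx16 set.

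Of 19 other T-box family genes looked for, 9 were measured, and 2 of them fell and 0 rose in limma (0 higher also at an unadjusted p under 0.05). Over all measured genes, with 1 probe set per gene, 7.12% were called lower and 5.65% higher. tbx3a, a repressor with roles in limb, heart and ventral cell fates, was 6.13 in EWS-FLI1 and 6.86 in AB control pools on average, a difference of -0.73 (SE 0.11, adjusted p = 0.0044). tbx2b, a related repressor needed in the zebrafish pineal and retina, was 5.19 in EWS-FLI1 and 5.78 in AB control pools, a difference of -0.59 (SE 0.10, adjusted p = 0.0071). The other 7 had both group means at or under the background mark, among them eomesa, the gene most closely related to tbr1b in this list (3.87 in EWS-FLI1 and 3.71 in AB control pools, adjusted p = 0.629). The median difference of the 9 was -0.04, beside 0.0033 over one probe set for each of the 8793 genes. It was -0.66 without dim probe sets, which left 2 of the 9, tbx3a and tbx2b.

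The surrounding gene groups were read with 1 probe set per gene, the brightest, against a background of 5.65% of genes called higher and 7.12% called lower. The first group held ligands, feedback genes, targets and other components of the Nodal, FGF and Wnt pathways, which act on the mesodermal T-box genes. Of 22 measured, 14 fell, 8 were not called and 0 rose (0 higher also at an unadjusted p under 0.05), with a median difference of -0.52. The ligand gene fgf24 fell by 1.14 (SE 0.20, adjusted p = 0.0073), fgf8a fell by 0.96 (SE 0.11, adjusted p = 0.0012) and the FGF-responsive ETS factor etv4 fell by 0.90 (SE 0.10, adjusted p = 9.9e-04). FGF feedback genes, named after their values were seen, did not all fall. spry4 (-0.72, adjusted p = 0.0097) and spry2 (-0.53, adjusted p = 0.0175) fell. dusp6 (-0.01, adjusted p = 0.973) and il17rd (0.0033, adjusted p = 0.990) were bright in both groups and were not called. The count of fallen genes was 8 without EWS-FLI1 replicate 1 and 8 without replicate 3.

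The next group was the presomitic mesoderm and somites, the tissue in which tbx16, tbx16l and tbx6 act. Of 22 measured genes, 13 fell, 9 were not called and 0 rose (0 higher also at an unadjusted p under 0.05; median -0.52). The forkhead gene foxc1a, needed for somites, fell by 0.84 (SE 0.14, adjusted p = 0.0054), and cyp26a1, which breaks down retinoic acid, fell by 0.80 (SE 0.13, adjusted p = 0.0059). tcf15, the paraxis gene of the somites, differed by -0.96 (SE 0.22, adjusted p = 0.0221), and lost its call without any 1 EWS-FLI1 array (adjusted p up to 0.101). The count of fallen genes was 6 without EWS-FLI1 replicate 1 and 8 without replicate 3. msgn1, a direct target of tbx16 that was named after its value was seen, was bright in both groups and was not called (-0.35, adjusted p = 0.0968).

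In the notochord and axial mesoderm, where tbxta acts, 7 of 15 measured genes fell and 1 rose (median -0.50), although tbxta itself rose. chrd, the BMP antagonist of the organizer, fell by 0.91 (SE 0.09, adjusted p = 6.5e-04). The notochord collagen gene col2a1a fell by 1.04 (SE 0.17, adjusted p = 0.0059), with its EWS-FLI1 mean of 3.23 under the background mark. The gene that rose was foxa, a forkhead factor, at 8.29 in EWS-FLI1 and 5.41 in AB control pools (difference 2.88, SE 0.09, adjusted p = 5.1e-07). noto, which marks the notochord precursor and was named after its value was seen, fell by 0.87 (adjusted p = 0.0040).

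Among 15 measured pharyngeal, heart and ear genes, the tissues of tbx1, 4 fell and 0 rose (2 higher at an unadjusted p under 0.05; median -0.32, or -0.62 without dim probe sets). The cardiac and pharyngeal homeobox gene nkx2.7 fell by 1.19 (SE 0.20, adjusted p = 0.0063), the LIM homeobox gene isl1a fell by 0.98 (SE 0.14, adjusted p = 0.0030) and the placode gene dlx3b fell by 0.97 (SE 0.16, adjusted p = 0.0057). A second, dim probe set of isl1a fell by 0.58 (adjusted p = 0.0044). Beside the rise of tbx1, 1 gene of this group was called higher with array weights and 1 was called higher without AB control replicate 3.

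Among 21 measured forebrain genes, 9 fell and 2 rose (median -0.56). Without EWS-FLI1 replicate 1 the count of fallen genes was 6, and without replicate 3 it was also 6. Both group means were at or under the background mark for 6 of the 21. Among these was the fallen gene emx2, named after its value was seen (-0.73, adjusted p = 0.0043). rx3, which specifies the eye field, fell by 1.33 (SE 0.16, adjusted p = 0.0015) and the homeobox gene six7 fell by 1.05 (SE 0.17, adjusted p = 0.0050), while a dim probe set of six7 was not called (-0.18, adjusted p = 0.207). pax6a differed by -1.74 (SE 0.37, adjusted p = 0.0172) with its EWS-FLI1 mean under the background mark, and lost its call without any 1 EWS-FLI1 array (adjusted p up to 0.0724). The 2 that rose, named after their values were seen, were the proneural gene neurog1 (0.97, adjusted p = 0.0188) and neurod1 (0.76, adjusted p = 0.0055). neurod1 lay under the background mark in both groups, and the call of neurog1 depended on EWS-FLI1 replicate 1 and on AB control replicate 1 (without either, adjusted p up to 0.0673). reln, a Tbr1 target in mice that was named after its value was seen, differed by -0.03 (adjusted p = 0.938).

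Markers of differentiated neurons were read beside tbr1b. Of 11 measured, limma called 0 higher and 0 lower, and 0 had an unadjusted p under 0.05 in either direction, but 1 was called lower without AB control replicate 1 and 2 without AB control replicate 2. Their summed linear signal was 329 to 335 in EWS-FLI1 and 342 to 398 in AB control pools. This sum mostly follows the tubulin gene tubb5, by far the brightest of the markers and named after its value was seen. On average tubb5 was 7.70 in EWS-FLI1 and 7.93 in AB control pools (adjusted p = 0.209), so the sum says little of the other markers. Of these markers 3 had a mean above the background mark in at least 1 group, and gap43, a growth cone gene, had the largest difference (-0.28, adjusted p = 0.249).

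Markers of other cell types of the gastrula were read in the same way. Of 9 enveloping layer markers, 8 of them above the background mark, 1 fell, the annexin gene anxa1c (-0.58, adjusted p = 0.0047). Their summed signal was 18788 to 21038 in EWS-FLI1 and 20846 to 22875 in AB control pools. This sum mostly follows the keratin genes among them. Of 9 genes listed as yolk syncytial layer markers, 7 of them above the mark, 2 fell and 7 were not called. The 2 were the fibronectin genes fn1b (-0.80, adjusted p = 0.0066) and fn1a (-0.59, adjusted p = 0.0043). Whether the listed genes mark only this layer was not tested. fn1a was not called at its dimmer probe sets (-0.30 and -0.14). The summed signal of the 9 listed genes was 7900 to 8218 in EWS-FLI1 and 7390 to 11246 in AB control pools. It mostly follows the apolipoprotein genes apoa1a and apoa2, the brightest of the 9 and named after their values were seen. The sum therefore says little of the other listed genes. Of 5 germ cell markers limma called 0 (2 higher at an unadjusted p under 0.05), with ddx4 showing the largest difference (0.51, adjusted p = 0.208), and 2 were called higher without AB control replicate 2, 1 higher without AB control replicate 1 and 1 lower without AB control replicate 3. The part of the makeup of the pools in the T-box results was not tested.

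**Figure D4:**
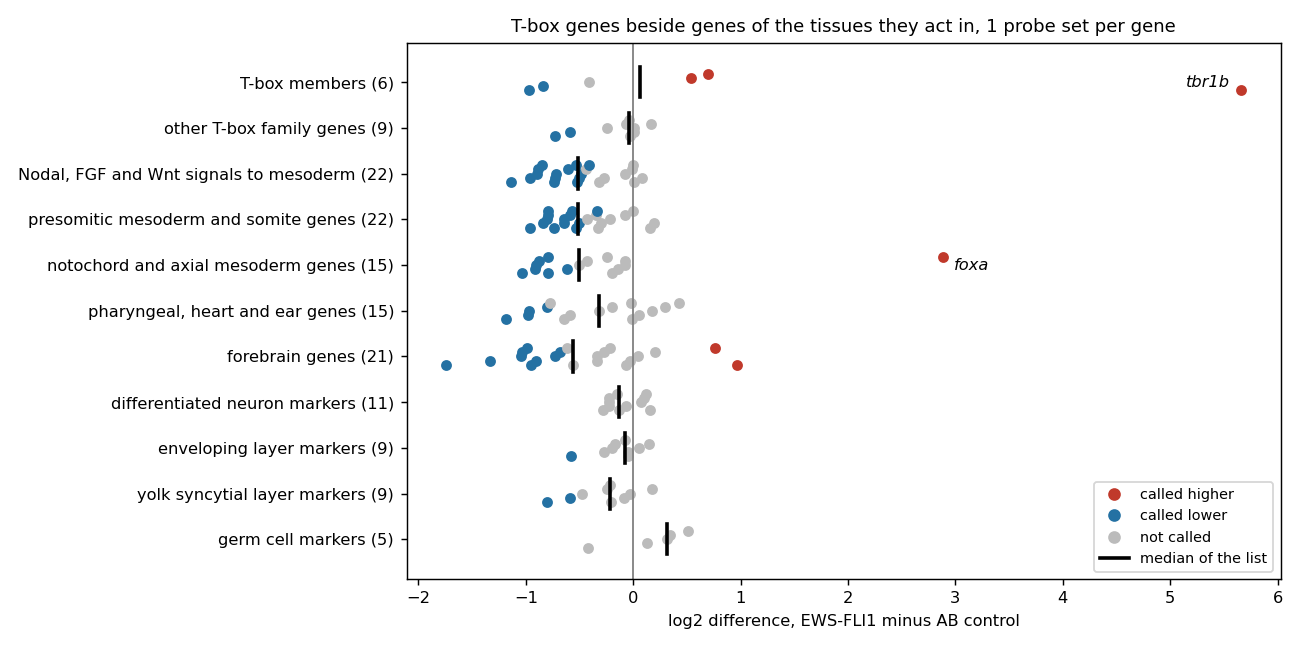
log2 differences, EWS-FLI1 minus AB control, of the T-box genes (top row) and of the measured genes of each surrounding group, 1 point per gene at its brightest probe set (group sizes in brackets; vertical black bar, median). Points of the mesodermal and forebrain groups lie mostly left of 0, with medians between -0.56 and -0.50, while tbr1b (5.66) and foxa (2.88) stand far to the right.

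The genes whose profile over the 6 arrays was most like each T-box gene were found by the Euclidean distance between log2 values centred on each probe set's mean. With only 2 groups the profile is mostly the group difference, so likeness is a description. Nearest to tbr1b were the type I collagen gene col1a2, at a second probe set (distance 0.68, 8.42 in EWS-FLI1 and 2.96 in AB control pools), and the LIM-domain gene fhl3b (distance 0.71, 7.96 in EWS-FLI1 and 2.65 in AB control pools). Like tbr1b, both were under the background mark in controls. Nearest to tbx16l was has2, a hyaluronan synthase gene, at a distance of 0.05 with a difference of -0.97, followed by nr0b2a (0.16). The EWS-FLI1 mean of has2, 3.96, lay under the background mark, so the size of its difference depends on the background. Nearest to tbx6 were the Hairy-related repressor her9 (0.12) and the ETS factor etv5a (0.12), which differed by -0.88 and -0.85. Nearest to the brighter tbx16 set were cebpb and stc2a (0.12 each), nearest to tbxta the nuclear export receptor gene cse1l (0.11) and atg101 (0.12), and nearest to tbx1 uqcc3 (0.15) and cldn11a (0.16). Of these, stc2a (3.55 in EWS-FLI1 and 4.0 in AB control pools) and cldn11a (3.73 in EWS-FLI1 and 2.99 in AB control pools) lay under the background mark in both groups, and uqcc3 in AB controls (4.12).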

How the data were processed

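The authors deposited a log2 RMA value for every probe set on every array, with 2 decimals. Named per the submitters' processing notes are RMA, affy and R 2.2.0. The range, 1.58 to 13.46, gave the log base, which no source states. RMA quantile-normalizes the arrays, so differences are relative to each array's whole distribution. There is no read depth, and precision is limited by the 3 arrays in each group. Of 15617 probe sets 115 controls were left out. GEO's annotation gave 1 symbol for 10795, several for 135 and none for 4572, and symbols were updated by Entrez identifier (10711 matched, 1 changed) against a RefSeq table of assembly GRCz12tu.

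The whole table was fitted with limma 3.58.1 (R 4.3.3) using lmFit and eBayes with 2 group means, two-sided. The fit was also run on simulated data with independent noise. That simulation held no array, clutch or batch effect, so it cannot show how the fit behaves under such effects. Pairs were compared with a two-sided exact permutation test over arrays. Plots used matplotlib 3.10.9. The members, lists and tests were chosen with earlier results of these data known. By rule the text names all probe sets of the members, up to 3 called genes with the largest difference per list or else the single largest, and the 2 nearest profiles per member. Outside this rule it names eomesa, the neighbouring genes and the genes marked as named after their values were seen. The main fit did not pair the samples by replicate number, and the labels do not say whether same-numbered pools belong together. Promoter motifs were not analysed here.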

Additional observations from a re-analysis of the deposited data

How the results depend on the processing

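Each T-box probe set was refitted with a replicate block, without dim probe sets, with median centring, with a second quantile normalization, with a trended or robust prior, with array weights and without each array, and read at an adjusted p under 0.01. All directions held in every setting run, but most settings could not have reversed one. The replicate block, the dim filter, the priors and the stricter threshold leave a difference of group means as it is. Because the 2 groups did not overlap at any T-box probe set, array weights or leaving out 1 array could not change its sign. Only median centring and the second quantile normalization could have done so. The dimmer tbx16 set gave no value without dim probe sets. At 0.01 only tbxta (0.54) lost its call. The exact permutation test has 0.1 as its smallest p in this design and can pass nothing, so tbxta (0.54), the dimmer tbx16 set (-1.22), tbx16l (-0.97), tbx6 (-0.84), tbx1 (0.70) and tbr1b (5.66) are not called by it. Without 1 array the differences ranged from 0.44 to 0.62 for tbxta, from -0.53 to -0.25 for the brighter tbx16 set (called only without AB control replicate 3), from -1.31 to -1.15 for the dimmer, from -1.16 to -0.81 for tbx16l, from -0.96 to -0.74 for tbx6, from 0.66 to 0.76 for tbx1 and from 5.44 to 5.84 for tbr1b.

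Same-numbered arrays did not deviate together (r of deviations over probe sets -0.10 to -0.08). Between arrays of unlike numbers r was -0.0030 to 0.077. Such small values cannot show whether the pools were collected in pairs. With the replicate block tbxta had an adjusted p of 0.0207, no T-box call changed, and 705 probe sets were called higher and 871 lower. Over all probe sets 834 were called higher and 1001 lower. These counts were 415 and 411 at 0.01, 504 and 628 with 1 probe set per gene, and 450 to 1023 higher and 433 to 1286 lower without 1 array, lowest when EWS-FLI1 replicate 1 was left out. Leaving out EWS-FLI1 replicate 2 gave 534 higher and 572 lower, and replicate 3 gave 454 higher and 519 lower. Among the gene lists and pairs, 572 of the recomputed values were counted as the same as their main value and 26 as moved. Many of the 572 could not move, since the replicate block and the priors leave a median difference as it is. Those counted as the same also include shifts, such as the yolk syncytial layer median from -0.21 to -0.08 without AB control replicate 3. The cause of the moves was not tested.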

Other observations

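The protein-coding genes next to each T-box gene in the assembly were looked up after the values were seen, taking on each side the nearest gene that the array measures. Of these 12 neighbours 2 were called, both higher in EWS-FLI1 embryos, beside 5.65% of all measured genes called higher and 7.12% called lower. With so few neighbours this count does not set them apart from other genes. The chaperone gene hspb8, 7 genes from tbx1, was 7.93 in EWS-FLI1 and 5.50 in AB control pools (difference 2.44, limma adjusted p = 9.1e-04). dap1b, 6 genes from tbr1b, was 11.03 in EWS-FLI1 and 10.43 in AB control pools (difference 0.60, adjusted p = 0.0370). On its other side the nearest measured gene of tbr1b was fign, 8 genes away and under the background mark in both groups (difference -0.08, adjusted p = 0.839). The genes that lie closer to tbr1b and tbx1 were not analysed here. nudc, directly beside tbxta, was not called (0.18, adjusted p = 0.225).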
